A study of Mus musculus with 2 samples.

Results

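Keratin-high mesothelial cells that were not cycling were described in the perigonadal white adipose tissue (gWAT) of mice. A cell was a member when its barcode held 500 to 40000 unique molecular identifiers (UMIs, each standing for a captured transcript molecule), at least 100 genes and less than 12.5% mitochondrial UMIs, a UMI of at least 5 of Krt19, Krt7, Krt8, Krt18, Upk3b, Upk1b, Msln, Lrrn4, Gpm6a and Nkain4, no UMI of the leukocyte gene Ptprc, and fewer than 4 of the cell cycle genes Mki67, Top2a, Birc5, Cenpf, Cdk1, Ccnb2, Nusap1, Tpx2, Ube2c and Prc1. Of 18753 cells that passed the filter on depth and mitochondrial share, 2800 were members. The members were 1151 of 10216 cells in the low fat diet (LFD) library (11.3%, exact binomial interval 10.7 to 11.9) and 1649 of 8537 cells in the high fat diet (HFD) library (19.3%, 18.5 to 20.2). Among cells with under 5% mitochondrial UMIs the shares were 9.51% (8.41 to 10.7) and 10.5% (9.51 to 11.6), with intervals that overlap. These and all later intervals are at the 95% level and cover counting error only. The members were chosen on measured transcripts, so the genes of the rule are described here and support nothing further.

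The cells came from male Cyp1a1Cre x R26LSL-eYFP mice, in which cells that have expressed Cyp1a1 carry eYFP permanently. Cyp1a1 encodes a cytochrome P450 that is switched on by the aryl hydrocarbon receptor (AHR). The mice were fed a diet with 10% fat (LFD) or 60% fat (HFD) for 12 weeks, and both groups received FICZ, a tryptophan photoproduct that binds the receptor, at 10 mg/kg 5 days before collection. The eYFP+ cells of the stromovascular fraction were sorted and sequenced as 1 library per diet from pooled mice. No difference between diets could therefore be tested, a library and its diet cannot be told apart, and the label marks past Cyp1a1 expression and not expression at collection.

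Mesothelium is the single-layered sheet that covers visceral organs and fat depots of the body cavities. Its cells keep features of epithelium, such as keratins, junctions and a lubricating surface, together with transcription factors and matrix genes of the underlying mesenchyme. In gWAT the layer faces the peritoneal fluid, and it is known for secreting acute phase and defence proteins and for taking on a mesenchymal form after injury.

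Members had a median of 13780 UMIs and 3618 genes per cell with LFD and 17071 UMIs and 4262 genes with HFD, with median mitochondrial shares of 5.71% and 5.64%. Their UMIs summed to 16564239 and 28745683. The libraries shared 27 barcodes, none of which was a member in both. Of the cells with at least 5 markers, 96 of 1629 (LFD) and 159 of 2268 (HFD) held a Ptprc UMI, and 382 and 460 were cycling by the rule. Levels are given as CPM, the UMIs of a gene scaled to a fixed total, summed over the cells of a group and library, given LFD before HFD, and CPM is not scaled by gene length since each molecule is counted at its 3' end.

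Among the genes of the rule, Nkain4 had a UMI in 98.5% and 99.0% of members and Lrrn4 in 88.4% and 95.1%. The keratin genes were more uneven. Krt19 had a UMI in 76.3% and 80.5% of members, Krt7 in 78.6% and 61.2%, Krt8 in 67.1% and 68.3%, and Krt18 in 25.1% and 21.3%. The uroplakin genes Upk3b and Upk1b stood at 113 and 130.2 CPM with LFD and at 228 and 233 CPM with HFD, whereas Krt7 stood at 352 and 186 CPM. Msln, which encodes the surface glycoprotein mesothelin, was nearly level at 100.3 and 102 CPM.

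The number of cells did not drop abruptly at the threshold. With cells holding Ptprc or 4 cycling genes left out, 384 LFD cells had a UMI of 4 markers and 309 of 5, and in the HFD library the numbers were 372 and 338. Cells just outside and just inside had median UMIs of 12778.5 and 13518 (LFD) and of 17469 and 17596 (HFD). Between them the level of Pdgfra, the receptor that marks fibroblasts and adipose progenitors, went from 328 to 274 CPM and from 268 to 212 CPM, and that of Slpi, a secreted inhibitor of neutrophil elastase, from 5531 to 6468 CPM and from 2970 to 3328 CPM. Cells with all 10 markers held 14862 and 10452 CPM of Slpi and 130.2 and 132 CPM of Pdgfra. The cells were not clustered, and these levels follow from a count of the rule's own genes.

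**Figure D1:**
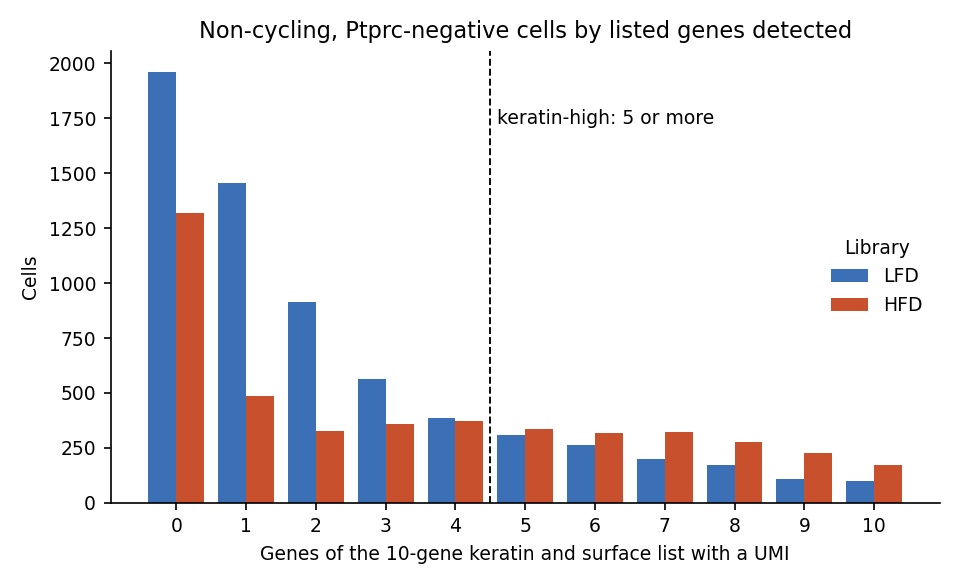
Number of cells (vertical axis) by how many of the 10 markers had a UMI (horizontal axis), among cells with no Ptprc UMI and fewer than 4 cycling genes, for the LFD and HFD libraries. Bars give the number of cells and the dashed line the limit of 5 markers. The bars run on across the limit without a gap, from 309 and 338 cells at 5 markers to 100 and 172 cells at 10 markers (LFD, HFD).

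The cell type label was held against genes outside the rule. Wt1, the transcription factor that marks mesothelium and visceral stroma, had a UMI in 95.9% and 98.4% of members, at 319 and 363 CPM. Gata6, a regulator of peritoneal and visceral mesoderm, stood at 262 and 353 CPM and Bnc1, basonuclin, at 49.1 and 55.6 CPM. Of 11 listed mesothelial and visceral transcription factors 8 passed the CPM filter. None of the 8 differed by 1.5-fold between diets, beside 4.14% of all genes higher and 1.47% lower. In the comparison with keratin-low stromal cells described below, 7 listed factors other than Wt1 were measured. None of the 7 was 2-fold higher or lower in both libraries (median log2 ratios -0.02 and 0.20), beside 1.26% and 1.59% of all genes. These factors therefore do not set the members apart from keratin-low cells. Muc16, a large surface mucin of mature mesothelium, was scarce, at 5.55 and 9.74 CPM. It had a UMI in 4.69% and 8.91% of members, or 1.04% and 2.13% once each cell was thinned to 2000 UMIs, where plasma cells had it in 0 of 452 and 0 of 1465 cells, which allows shares of up to 0.664% and 0.205%, taking 3 cells as the limit behind a count of 0.

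Most genes of other cell types were low in the members, but immunoglobulin transcripts, Esam and Kcnj8 were not. The 5 mature adipocyte genes summed to 0.181 and 0.104 CPM and the 9 epididymal and stratified epithelium genes to 2.41 and 1.70 CPM. The 7 macrophage and dendritic cell genes summed to 36.5 and 48.7 CPM and the 8 endothelial genes to 90.4 and 104 CPM. Of the endothelial genes Esam, a junction gene, was the highest at 58.7 and 82.6 CPM, against 17.4 and 22.3 CPM in keratin-low cells. The 6 T cell genes summed to 5.80 and 5.71 CPM, the 6 mural cell genes to 65.4 and 84.8 CPM, nearly all of it from the potassium channel gene Kcnj8, and the 5 erythroid genes to 1.57 and 25.4 CPM. The 7 B and plasma cell genes summed to 709 and 1416 CPM, led by Igkc. Plasma cells made up 4.44% of the LFD and 17.3% of the HFD library, at median UMIs of 13167 and 13823 (without the limit on Ighm, which was set after seeing the data, they would number 782 of 10216 and 2050 of 8537 cells), and the part of RNA from these cells in the members' values was not tested. Of the members, 2 in the LFD and 6 in the HFD library had over 1% of their UMIs from Ighm and Igkc, and they held 60.4% and 48.6% of the members' Ighm.

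To place the members among the stromal cells they grade into, they were compared with keratin-low cells. These held a Wt1 UMI, at most 3 of the 10 markers, no Ptprc UMI and no UMI of endothelial Pecam1, and were not cycling. There were 3388 such cells with LFD and 1244 with HFD, with median UMIs of 11257 and 14402.5. The rule made this contrast, so its values are a description. Members had no limit on Pecam1. The 8 endothelial genes summed to 90.4 and 104 CPM in members and to 28.0 and 30.4 CPM in keratin-low cells. The part of this difference in selection in the ratios was not tested. Of 5728 genes with a mean of at least 20 CPM, 72 (1.26%) were at least 2-fold higher in the keratin-high cells in both libraries and 91 (1.59%) at least 2-fold lower. Keratin-low cells were selected for a Wt1 UMI, which raises their Wt1 level, so the keratin-high to keratin-low ratios of Wt1, 1.01 (LFD) and 1.17 (HFD), are in part set by that selection.

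The 10 highest genes included 3 of cell junctions. Cldn3, a tight junction claudin (chr5:134986214-134987472, plus strand, mm10), stood at 41.2 and 56.2 CPM in keratin-high cells and at 1.58 and 4.45 CPM in keratin-low cells, which are ratios of 26.0 (20.1 to 34.2) and 12.6 (10.1 to 16.0). Cldn15, a claudin that forms cation pores, had ratios of 8.53 and 8.94 and Lsr, a protein of tricellular junctions, of 6.67 and 7.38. Of the 10 measured genes of surface glycoproteins, membrane linkers and junctions, 4 were at least 2-fold higher in both libraries (Cldn15, Cldn10, the plaque protein gene Jup and the actin linker gene Ezr) and none was lower, beside 1.26% of all genes higher.

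The lubricant gene Prg4 and the annexin gene Anxa8 were also among the 10 highest. Prg4 encodes lubricin, the glycoprotein that lets serosal and joint surfaces glide, and stood at 103 and 101 CPM against 11.4 and 11.8 CPM, with ratios of 8.96 and 8.55. Anxa8, an annexin of stratified epithelium, had ratios of 11.6 and 13.8, and Lgals7, a galectin of the same tissues that was not among the 10 highest, of 4.84 and 5.97. The membrane protein genes Pkhd1l1 (10.1 and 6.29) and Adgrf5 (5.85 and 5.95), the proline-rich gene Prr15 (10.7 and 15.6) and the secreted binding protein gene Igfbp5 (7.86 and 16.3) completed the 10 highest together with Ear1 (5.55 and 26.5). Ear1 belongs to a family of near-identical ribonuclease genes between which reads may have been split.

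The 10 lowest genes were scarce in the keratin-high cells. Crispld2, a secreted glycoprotein gene, stood at 1.45 and 2.40 CPM in keratin-high cells against 39.2 and 61.6 CPM, Sfrp1, a WNT antagonist, at 2.96 and 3.72 CPM against 58.1 and 200.2 CPM, and Mmp2, a gelatinase, at 4.89 and 3.79 CPM against 65.4 and 133 CPM. Of 26 matrix genes, 6 were at least 2-fold lower in both libraries (Col1a1, Col5a1, Lum, Postn, Mmp2 and Mmp3) and none was higher, beside 1.59% of all genes lower. The other genes of the lowest 10 were Sult1e1, Ptx3, Cxcl12, Col15a1, Dpt and Svep1, with HFD ratios between 0.00681 and 0.0697. The ranking went by the library nearer to 1, and the LFD ratios of these genes, which may be nearer to 1, are not given here. Keratin-low cells were mixed, since 681 of 1244 in the HFD library and 2876 of 3388 in the LFD library had UMIs of fewer than 4 of 10 fibroblastic progenitor genes. Against these cells alone, a comparison chosen after seeing the data, 70 genes were on the higher and 39 on the lower side, and Sult1e1, Postn and Svep1, all scarce in both groups then, were no longer lower in the keratin-high cells of the HFD library.

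**Figure D2:**
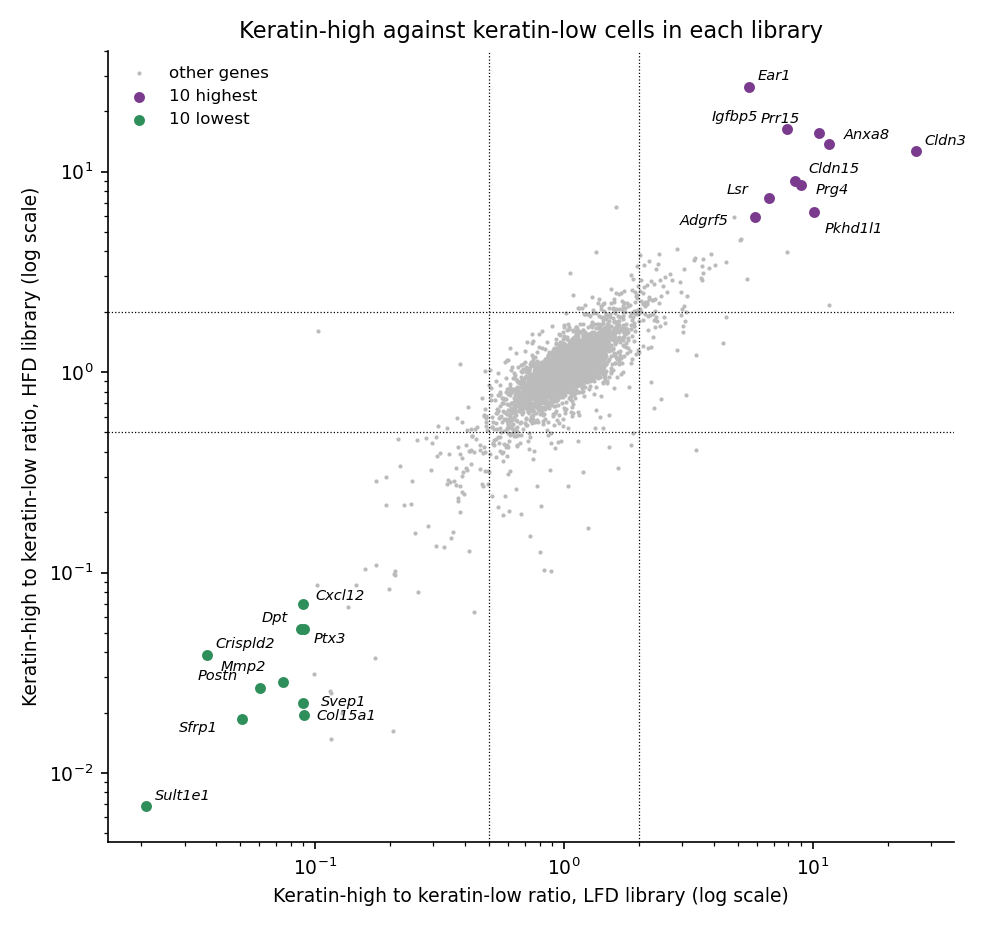
Ratio of CPM in keratin-high to keratin-low cells in the LFD library (horizontal axis, log scale) and the HFD library (vertical axis, log scale), 1 point per gene with a mean of at least 20 CPM. Named genes lie in the corners, with Cldn3 at ratios of 26.0 and 12.6 and Crispld2 at 0.0369 and 0.0390.

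The question of the design was how the cells differed between diets. Of 5699 genes with a mean of at least 20 CPM in the members, 236 (4.14%) were at least 1.5-fold higher and 84 (1.47%) at least 1.5-fold lower in the HFD library, so 73.8% of the genes past 1.5-fold were higher. The median gene was 0.11 higher on the log2 scale. Scaling by the median ratio of all genes removed this shift (median -0.02) and left 130 genes higher and 131 lower, so 49.8% were higher. The ratios that follow are on CPM and should be read against the shift of the median gene.

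The gene furthest from parity after the immunoglobulin gene Iglc1 was Pnoc (ENSMUSG00000045731, chr14:65400673-65425472, minus strand), which encodes the precursor of the opioid-like neuropeptide nociceptin. It stood at 46.1 CPM (42.9 to 49.5) in LFD members and at 789.6 CPM (779 to 800.0) in HFD members, a ratio of 17.1 (15.9 to 18.4). A Pnoc UMI was found in 14.2% of LFD and 71.0% of HFD members, and in 6.09% and 46.2% after thinning to 2000 UMIs. Plasma cells, taken as a measure of free RNA, had it in 0.221% and 0.614% of thinned cells, and endothelial cells in 0.193% and 3.68%. The level in keratin-low cells was 28.5 and 119 CPM and in cycling keratin-high cells 19.8 and 461 CPM. Among members with 5 or 6, 7 or 8 and 9 or 10 markers the HFD to LFD ratio was 11.2, 17.8 and 32.7.

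Besides Pnoc and the immunoglobulin genes, the 12 highest genes held 5 further genes of secreted proteins, grouped after their values were seen. The share of such genes among all genes was not measured. Igfbp5 (chr1:72857932-72874884, minus strand), which binds insulin-like growth factors, stood at 22.9 and 131 CPM, a ratio of 5.72 (5.14 to 6.37). Slit2, a guidance ligand of ROBO receptors, stood at 42.6 and 119.6 CPM (2.81), Mfap5, a microfibril glycoprotein gene, at 51.4 and 134 CPM (2.61), Vit, vitrin of the extracellular matrix, at 17.5 and 48.0 CPM (2.74), and the secreted metalloproteinase gene Adamts19 at 22.1 and 64.3 CPM (2.91). All of them were also at least 1.5-fold higher in HFD keratin-low cells, where the ratio of Mfap5 was 6.29. The make-up of the keratin-low cells moved with diet, as 2876 of 3388 with LFD and 681 of 1244 with HFD had few fibroblastic progenitor genes, and its part in these ratios was not tested.

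The remaining higher genes had other roles. The water channel gene Aqp5 stood at 21.6 and 87.5 CPM, a ratio of 4.06, and at 6.97 and 43.7 CPM in keratin-low cells. Aox3, an aldehyde oxidase gene, had a ratio of 2.87 and Pfn1, profilin of the actin cytoskeleton, of 2.54. Hspa1b, a heat shock protein 70 gene with a near-identical neighbour in Hspa1a, had a ratio of 2.86. Reads of such copies may have been split, so the value belongs to the pair with some uncertainty. Ighm (139 and 388 CPM) and Iglc1 (3.80 and 88.2 CPM) were among the 12 highest too, beside 60703 and 82705 CPM of Ighm and 4905 and 26283 CPM of Iglc1 in plasma cells, and the part of plasma cell RNA in them was not tested. Iglc1 is in addition hard to tell from its sister constant regions. Without the members rich in immunoglobulin, an alternative chosen after seeing the data, the log2 ratios were 1.86 (Ighm) and 3.80 (Iglc1).

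**Figure D3:**
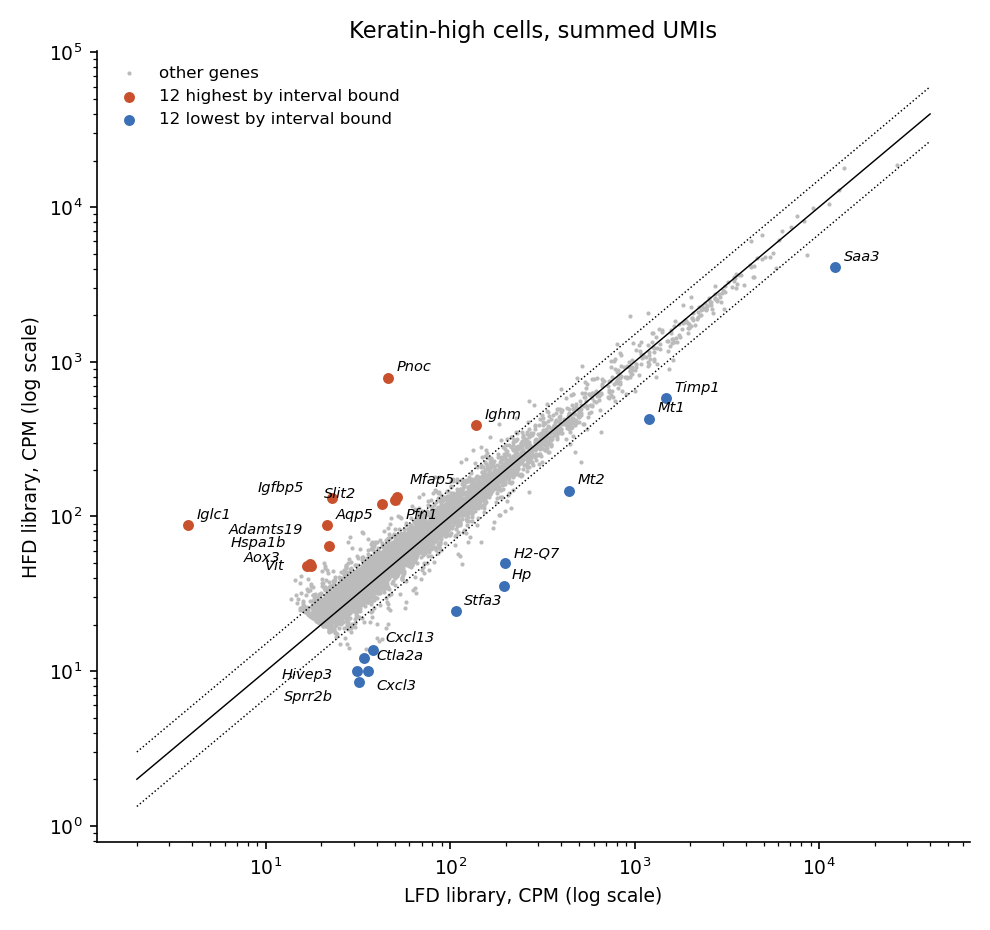
Level of each gene in LFD (horizontal axis) and HFD members (vertical axis), in CPM on log axes, for genes with a mean of at least 20 CPM. Pnoc lies far above the diagonal at 46.1 and 789.6 CPM, and Hp far below it at 195 and 35.7 CPM.

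The measured acute phase and innate defence genes were lower in HFD members. All 5 measured of 14 listed were at least 1.5-fold lower, with a median log2 ratio of -1.15 against 0.11 over all genes, of which 1.47% were lower (2.30% under median-ratio scaling). Hp, haptoglobin, which binds free haemoglobin (chr8:109575128-109579172, minus strand), stood at 195 CPM (interval 188 to 202) beside 35.7 CPM (33.5 to 37.9), and the ratio was 0.183 (0.170 to 0.196). Saa3, the serum amyloid A made outside the liver (ENSMUSG00000040026, chr7:46711998-46715700, minus strand), was the most abundant of the group at 12221 and 4075 CPM, a ratio of 0.333 (0.331 to 0.336). It stood at 1346 and 99.3 CPM in plasma cells, a cell type not known to make it, and that background was also lower in the HFD library. Slpi stood at 8554 and 4903 CPM (0.573), Lcn2, the iron-scavenging lipocalin gene, at 56.8 and 25.5 CPM (0.449), and the lipopolysaccharide co-receptor gene Cd14 at 110.5 and 57.5 CPM (0.520). The direction was the same in keratin-low cells, where Saa3 had a ratio of 0.199 and Slpi of 0.398.

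The promoters of Saa3, Slpi and Lcn2 are shown because the genes were lower together and belong to the acute phase response, in which C/EBP factors are known to act. These 3 of the 5 genes matched the RefSeq promoter table (GRCm38.p6), the others being Hp and Cd14. The windows run from 250 bases before to 50 after the start, 5′ to 3′ on the strand of the gene. Capitals mark matches on either strand to TTGCNNAA, the core of a C/EBP site, where N is any base. Each promoter held 1 match, and 10.8% of all 32851 promoters of this length held at least 1. A match is a run of letters and does not show that a factor is bound. Saa3 lies at chr7:46715627-46715926, Slpi at chr2:164356458-164356757 and Lcn2 at chr2:32387690-32387989, all on the minus strand.
Saa3: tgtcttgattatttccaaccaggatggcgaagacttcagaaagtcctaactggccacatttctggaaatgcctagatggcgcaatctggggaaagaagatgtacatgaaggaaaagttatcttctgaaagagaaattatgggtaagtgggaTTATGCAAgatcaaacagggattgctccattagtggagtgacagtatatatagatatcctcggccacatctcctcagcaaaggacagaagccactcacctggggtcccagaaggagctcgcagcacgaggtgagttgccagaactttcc
Slpi: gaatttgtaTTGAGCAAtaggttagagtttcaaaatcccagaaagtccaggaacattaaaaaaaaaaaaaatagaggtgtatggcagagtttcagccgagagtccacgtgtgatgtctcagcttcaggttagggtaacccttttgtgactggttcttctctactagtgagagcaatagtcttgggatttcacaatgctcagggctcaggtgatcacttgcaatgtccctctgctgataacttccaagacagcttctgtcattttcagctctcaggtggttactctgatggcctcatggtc
Lcn2: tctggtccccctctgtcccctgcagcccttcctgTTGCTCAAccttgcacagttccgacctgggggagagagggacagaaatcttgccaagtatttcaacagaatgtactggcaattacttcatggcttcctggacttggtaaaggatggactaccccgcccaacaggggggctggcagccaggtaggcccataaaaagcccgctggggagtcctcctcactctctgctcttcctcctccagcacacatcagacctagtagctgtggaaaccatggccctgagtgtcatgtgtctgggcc

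The metallothionein genes Mt1 and Mt2, whose proteins bind zinc and copper, were lower as a pair. Mt1 (chr8:94179082-94180327, plus strand) stood at 1198 CPM (interval 1181 to 1214) beside 429.5 CPM (422 to 437), with a ratio of 0.359 (0.351 to 0.367), and Mt2 (chr8:94172664-94173568, plus strand) at 441 and 147 CPM, a ratio of 0.333. In keratin-low cells the ratios were 0.540 and 0.566, and in cycling keratin-high cells 0.284 and 0.241. The promoters are given because both genes are known targets of the metal-sensing factor MTF1. Capitals mark TGCACNC or TGCGCNC, the core of the metal response element, on either strand. Mt1 held 3 matches and Mt2 held 4, against 25.7% of all promoters with at least 1. The Mt1 window is chr8:94178839-94179138 and the Mt2 window chr8:94172368-94172667 (GRCm38.p6, RefSeq, plus strand).
Mt1: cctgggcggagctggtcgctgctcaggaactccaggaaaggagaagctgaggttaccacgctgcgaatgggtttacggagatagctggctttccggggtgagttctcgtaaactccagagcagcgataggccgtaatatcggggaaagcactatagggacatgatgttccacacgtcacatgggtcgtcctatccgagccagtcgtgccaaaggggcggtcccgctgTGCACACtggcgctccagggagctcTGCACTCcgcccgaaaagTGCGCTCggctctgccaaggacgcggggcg
Mt2: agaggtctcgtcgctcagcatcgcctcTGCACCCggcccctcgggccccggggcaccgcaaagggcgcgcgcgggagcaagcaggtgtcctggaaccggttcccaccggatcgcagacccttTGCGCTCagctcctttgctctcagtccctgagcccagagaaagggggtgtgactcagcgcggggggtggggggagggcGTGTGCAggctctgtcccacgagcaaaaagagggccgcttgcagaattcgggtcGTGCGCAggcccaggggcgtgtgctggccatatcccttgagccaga

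The other genes of the lowest 12 included further secreted and immune genes. Timp1, an inhibitor of metalloproteinases, stood at 1472 and 585 CPM (0.397), whereas Timp2 stood at 803 and 1298 CPM (1.62). Cxcl3, a chemokine for neutrophils, stood at 36.0 and 10.0 CPM (0.278), and Cxcl13, a chemokine for B cells, at 38.1 and 13.6 CPM (0.357). Stfa3, an inhibitor of cysteine proteases, had a ratio of 0.227, Sprr2b of the small proline-rich family a ratio of 0.266 and the zinc finger gene Hivep3 of 0.323. Stfa3 and Sprr2b have near-identical copies, which makes their own values uncertain. Ctla2a, a protease inhibitor gene, stood at 34.2 and 12.2 CPM beside 2310 and 1871 CPM in endothelial cells, and its ratio was not below 1 among members without a UMI of the endothelial, myeloid, T cell or mural lists. Krt14, a basal keratin outside the rule, stood at 40.9 and 15.6 CPM in members and at 0.679 and 0.0564 CPM in keratin-low cells.

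**Figure D4:**
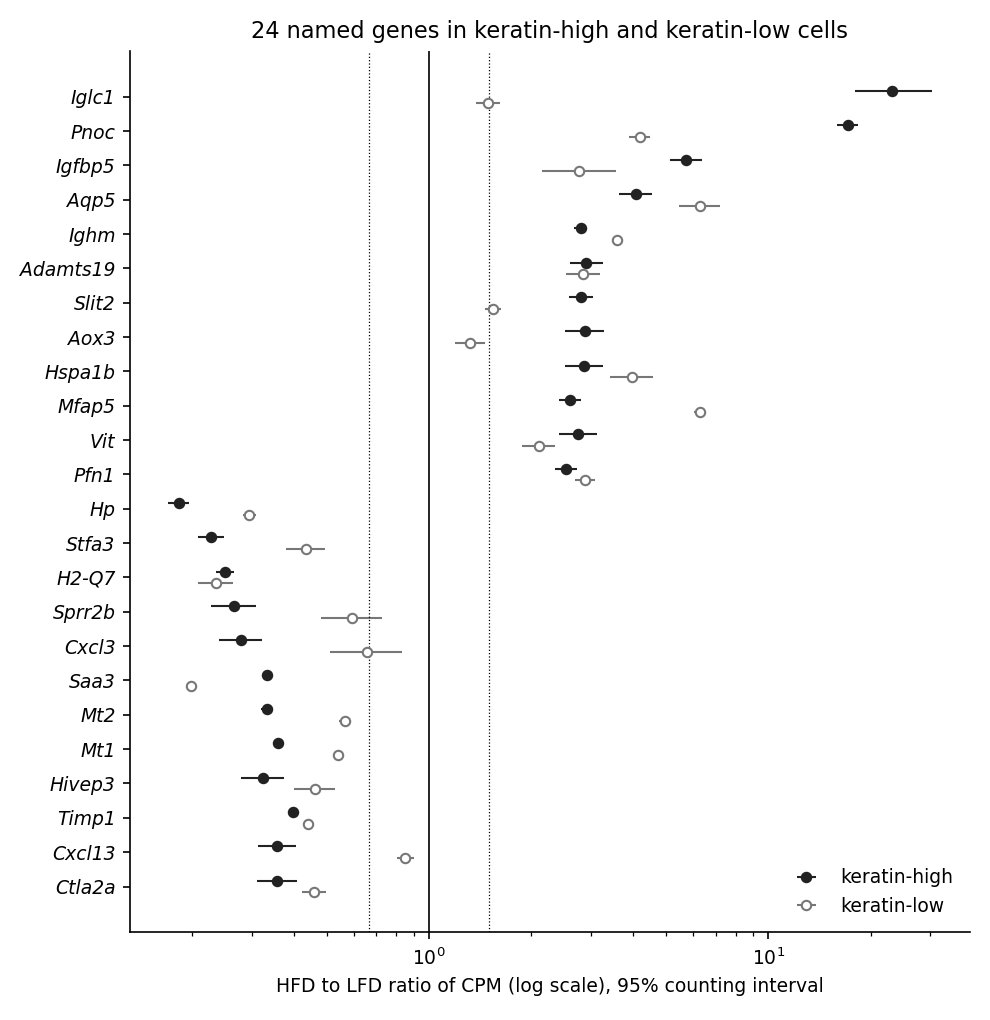
HFD to LFD ratio of CPM (horizontal axis, log scale) for the 12 genes furthest above and the 12 furthest below parity, in keratin-high (filled points) and keratin-low cells (open points), with 95% counting intervals and dotted lines at 1.5-fold. Each of the 24 genes lies on the same side of parity in both, with Mfap5 at 2.61 and 6.29 and Cxcl13 at 0.357 and 0.850.

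All 24 of these genes lay on the same side of 1 in keratin-low cells as in members, and 10 of the 12 higher and 11 of the 12 lower ones were past 1.5-fold there. The exceptions were Iglc1 (1.49), Aox3 (1.32) and Cxcl13 (0.850). Within the members, 11 of the 12 higher genes kept their side in cells with 5 or 6, 7 or 8 and 9 or 10 markers (not Ighm), as did 11 of the 12 lower genes (not Cxcl13). The same libraries enter each of these ratios, so they are no independent evidence of the direction.

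MHC class I and interferon genes did not move as a block. Of 15 measured MHC class I and peptide loading genes, 5 were at least 1.5-fold lower and 1 higher, with a median log2 ratio of -0.01 (6 and 1 under median-ratio scaling), beside 1.47% of all genes lower and 4.14% higher on CPM. H2-K1, a classical heavy chain, stood at 1535 and 891 CPM (0.581), its light chain B2m at 1002 and 643 CPM (0.641) and H2-Q7 at 199 and 49.7 CPM (0.250), although reads of H2-Q7 and its near-copy H2-Q6 (0.394) are hard to tell apart. H2-T23, a non-classical chain, was higher at 68.1 and 134 CPM (1.97), and the immunoproteasome gene Psmb8 stood at 318 and 317 CPM. Of 10 interferon-stimulated genes, 2 were lower, Ifit1 (44.6 and 19.0 CPM, 0.426) and Ifi27l2a (199 and 109 CPM, 0.546), and 4 were lower under median-ratio scaling, beside 2.30% of all genes.

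Most of the listed complement, cytokine and chemokine genes did not pass 1.5-fold. The central component C3 stood at 3061 and 2204 CPM (0.720) and Cfb, factor B of the alternative pathway, at 1278 and 1006 CPM (0.787), and neither passed 1.5-fold on CPM, although 1 complement gene was lower under median-ratio scaling. Among 9 complement genes 1 was higher, the inhibitor Cd55 at 103 and 174 CPM (1.68), which is also listed with the adipose progenitor genes. Among 13 cytokine and chemokine genes Il6 was higher at 103 and 169 CPM (1.64) and Cxcl13 lower, and under median-ratio scaling none was higher. Over all genes 4.14% were higher and 1.47% lower on CPM. The monocyte chemokine gene Ccl2 stood at 979.8 and 1324 CPM (1.35) and Ccl7 at 397 and 396 CPM. Cxcl3, which the list does not hold, was among the 12 lowest genes at 0.278.

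Matrix and progenitor genes lay mostly on the higher side, in part with the median gene. Of 23 matrix genes, 4 were at least 1.5-fold higher and 1 lower (median log2 ratio 0.35), and under median-ratio scaling 1 was higher and 1 lower, near the 2.28% and 2.30% of all genes. Fn1, fibronectin, stood at 940.2 and 1987 CPM, a ratio of 2.11, while the fibrillar collagen gene Col3a1 stood at 7592 and 8821 CPM (1.16). Of 12 adipose progenitor genes, 5 were higher and none lower (median 0.46), and 4 were higher under median-ratio scaling, beside 4.14% of all genes on CPM and 2.28% under that scaling. Among those higher on CPM were the surface sialomucin Cd34 (286 and 522 CPM, 1.82), the lectin-domain gene Clec3b (21.1 and 48.1 CPM, 2.28) and the lipid carrier Fabp4 (400.3 and 665 CPM, 1.66). Fabp4 stood at 20124 and 30124 CPM in endothelial cells, and the part of endothelial RNA in its value was not tested. Clec3b stood at 16.8 and 288 CPM in keratin-low cells. Of 10 genes used to find fibroblastic progenitors, which overlap the list, 6 were measured in the members and 3 were higher (median 0.57), and such progenitors made up 0.558% of LFD and 1.24% of HFD cells. Their part in these values was not tested. Pparg, the regulator of adipocyte differentiation, was nearly absent at 0.241 and 0.139 CPM.

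Of 11 surface and junction genes 3 were at least 1.5-fold higher, among them Cldn15 (52.3 and 122 CPM, 2.33) and the cadherin gene Cdh2 (68.2 and 106 CPM, 1.55), and 1 was higher under median-ratio scaling, beside 4.14% and 2.28% of all genes. Lgals7 stood at 484 and 790.4 CPM (1.63). Of the 3 measured genes of its list, small proline-rich and stratified epithelium genes, 1 was higher, and 0 under median-ratio scaling. S100a4, a calcium-binding protein, stood at 133 and 268 CPM (2.02). Of the 5 measured genes of its list, epithelial-mesenchymal transition and contractile genes, 1 was higher under either scaling.

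Cyp1a1, the gene that drives the label, was low in the members at 16.4 CPM (14.5 to 18.4) and 18.9 CPM (17.3 to 20.5), below the filter of 20 CPM. It stood at 471 and 516 CPM in endothelial cells. After thinning to 2000 UMIs 2.96% and 2.68% of members had a Cyp1a1 UMI, against 0.442% and 0.410% of plasma cells and 51.3% and 46.3% of endothelial cells (unthinned, 7.38% and 9.46%, 2.42% and 2.03%, and 73.4% and 63.8%). Of the 6 measured AHR genes only Nqo1, a quinone reductase that NRF2 also controls, was past 1.5-fold, at 28.8 and 73.2 CPM (2.54). Cyp1b1, a further cytochrome P450 target, stood at 744 and 929.6 CPM (1.25), Tiparp, a feedback inhibitor of the receptor, at 229 and 311 CPM (1.36), and Ahr itself at 25.9 and 23.4 CPM. Of 15 NRF2 antioxidant genes 2 were higher, Gstm1 (1.74) and Me1 (1.59), and the median log2 ratio was 0.37. Under median-ratio scaling 1 was higher and 1 lower. These AHR and NRF2 counts stand beside 4.14% of all genes higher on CPM.

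Glycolysis and ribosomal protein genes stayed within 1.5-fold on CPM. None of 8 glycolysis genes was past it, with a median log2 ratio of -0.29 (1 was lower under median-ratio scaling). Nor was any of 86 ribosomal protein genes, with a median of -0.12. Over all genes 4.14% were higher and 1.47% lower on CPM, and 2.28% and 2.30% under median-ratio scaling. Of 15 immediate early and heat shock genes 1 was higher, Hspa1b, with a median of -0.11 over the list, beside 4.14% of all genes higher. Of 12 cholesterol and fatty acid synthesis genes 3 were lower (Sqle, Scd2 and Elovl6), or 4 under median-ratio scaling. Over all genes 1.47% were lower on CPM and 2.30% under that scaling. Of 6 retinoic acid pathway genes 1 was lower, the retinal reductase gene Dhrs3 (76.7 and 45.1 CPM, 0.588), while the mesothelial retinoic acid-producing enzyme Aldh1a2 stood at 146 and 164 CPM (1.12). Of 13 growth factor and binding protein genes 3 were higher and 1 lower (median log2 ratio 0.21), or 2 and 1 under median-ratio scaling. The lower gene, Igf1, stood at 64.1 and 34.2 CPM (0.534), well under the 363 and 314 CPM of keratin-low cells.

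**Figure D5:**
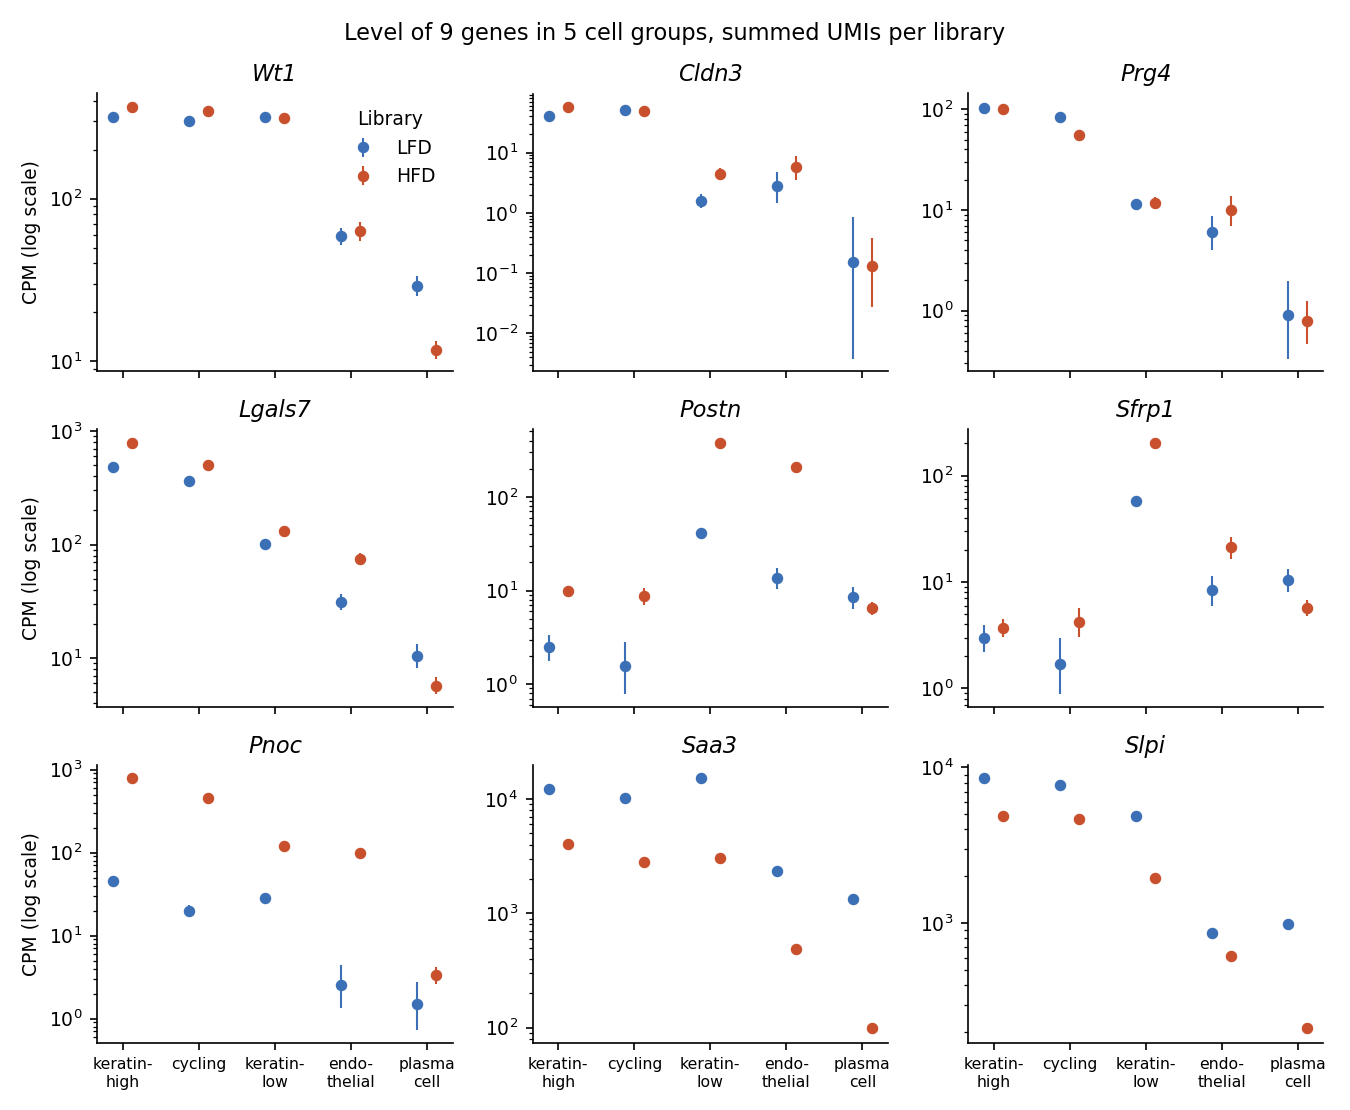
Levels of 9 genes in CPM (vertical axes, log scale) in keratin-high, cycling keratin-high, keratin-low, endothelial and plasma cells of the LFD and HFD libraries, with 95% counting intervals. Cldn3 and Prg4 are highest in the keratin-high and cycling cells, Postn and Sfrp1 peak in keratin-low cells, and Slpi falls from 8554 and 4903 CPM in keratin-high cells to 994 and 212 CPM in plasma cells.

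How much the members differed among themselves was measured after thinning each to 5000 UMIs, which left out 2 LFD and 15 HFD cells. The variance to mean ratio, which is 1 for sampling alone, had medians of 1.07 and 1.06 over 3226 genes and was 2 or more in both libraries for 123 genes. Igkc (448 and 225) and Ighm (80.2 and 79.2) had the highest ratios, with the 10% of LFD cells highest in Igkc holding 73.5% of it. They were followed by the nuclear RNA Malat1 (39.9 and 38.1), Slpi (40.0 and 33.9), Saa3 (41.7 and 30.5), Mgp, an inhibitor of calcification (23.2 and 20.8), the ferritin gene Fth1 (23.7 and 15.4) and Serpinb2, an inhibitor of plasminogen activators (17.4 and 11.8). The median cell held 50 Saa3 UMIs in the LFD and 13.5 in the HFD library, and the cell at the 90th percentile 130 and 51. For genes that vary beyond sampling the ratio tends to rise with the level, so this ranking favours abundant genes. The 10% of cells highest in Fth1 held 18.6% and 18.2% of its UMIs, and for Malat1 26.9% and 23.7%. For Cxcl2, with a median of 0 UMIs, the shares were 65.6% and 69.3%. Such shares in turn tend to be higher for scarce genes.

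Some of these genes varied together across cells. Over the 1149 LFD and 1634 HFD cells, which share a library and its free RNA within each value, 496 pairs were computed on log counts after thinning. Saa3 had a Pearson correlation of 0.51 and 0.55 with Cfb and of 0.54 and 0.51 with Fth1, and Mt1 one of 0.67 and 0.44 with Mt2. Ccl2 and Ccl7, neighbours on chromosome 11, reached 0.48 and 0.44. Fn1 was lower where Mgp (-0.37 and -0.32) and H2-K1 (-0.32 and -0.33) were higher. With the number of markers detected, which the rule used, Slpi had 0.23 and 0.26 and Col3a1 -0.33 and -0.42.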

How the data were processed

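Single-cell transcriptomes of sorted eYFP+ gWAT stromal cells were measured with 10x 3' chemistry in 1 library per diet, from pooled mice. The authors' submitted notes name bcl2fastq 2.17.1.14, Cell Ranger 4.0.0 with STAR, the mm10 build and Seurat 4.1.0. The deposited matrices hold raw UMI counts per gene and cell, not normalized. The libraries held 114311020 (LFD) and 119498750 (HFD) UMIs in 11281 and 9631 barcodes, of which 10216 and 8537 passed the filter.

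Counts were summed over the cells of each group and library and divided by all their UMIs to give CPM. Genes with a mean of at least 20 CPM over the compared groups entered each comparison. Poisson and binomial intervals were exact, and the interval of a ratio was the conditional binomial interval of the summed counts. With 1 library per diet no test was made, and a gene counts as higher or lower past 1.5-fold between diets, or past 2-fold in both libraries between cell groups. Variation was measured after thinning to 5000 UMIs, and shares of cells with a UMI after thinning to 2000 UMIs. The cell groups set beside the members were keratin-low cells, cycling keratin-high cells, endothelial cells (at least 4 of 5 marker genes) and plasma cells (at least 4 of 5 marker genes and 1% or more of UMIs from Ighm, the last limit set after seeing the data). Doublets were not removed. Leaving out the highest Scrublet scores was an alternative. Median-ratio scaling, other limits on markers, depth, mitochondrial share and cycling genes, and other filters on low levels were tried as well. The code was tested on simulated counts with known folds.

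Gene positions came from annotation of mm10 (GRCm38), matched for 32158 of 32285 gene identifiers, and promoters from RefSeq. The genes named are the 12 highest and 12 lowest between diets by the interval bound nearest to 1, the 10 highest and 10 lowest between keratin-high and keratin-low cells by the library nearer to 1, the 12 of highest variance to mean ratio, and examples of the gene lists. Others, such as Pparg, were chosen after their values were seen. The members, the lists and the rule were chosen with earlier results of these data known. Scripts used Python 3.11.15, NumPy 2.4.6, SciPy 1.17.1, pandas 2.3.3 and scanpy 1.11.5.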

Additional observations from a re-analysis of the deposited data

Results flagged for a closer look

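Among the genes named, 2 past 1.5-fold between diets in keratin-high cells lay on the other side of parity in keratin-low cells. The difference was not tested, since each diet had 1 library. Ear1, a ribonuclease gene with near-identical copies, had an HFD to LFD ratio of 2.45 (2.21 to 2.72) in keratin-high cells, at 28.1 and 68.8 CPM, and of 0.513 (0.364 to 0.710) in keratin-low cells, at 5.05 and 2.59 CPM. Its ratio was 1.41 in members with 5 or 6 markers and 1.34 in those with 7 or 8, and of the 3 ranges of markers only the members with 9 or 10, at 38.6 and 174 CPM, were past 1.5-fold. Ifi27l2a, an interferon-stimulated gene, had a ratio of 0.546 (0.520 to 0.574) in keratin-high cells, at 199 and 109 CPM, and of 1.37 (1.29 to 1.44) in keratin-low cells, at 88.9 and 121 CPM.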

How the results depend on the processing

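No paired analysis was possible because each diet had 1 library, and no library could be left out for the same reason. The members' share moved with the rule. In the LFD and HFD libraries it was 15.0% and 23.7% with a minimum of 4 markers, 8.24% and 15.4% with 6, 7.82% and 15.0% after thinning to 5000 UMIs, 9.51% and 10.5% with a mitochondrial share under 5%, and 8.61% and 14.7% with fewer than 2 cycling genes. The HFD share was the higher value each time, but with a mitochondrial share under 5% the intervals (8.41 to 10.7 and 9.51 to 11.6) overlapped. The genes higher and lower past 1.5-fold numbered 130 and 131 under median-ratio scaling, 550 and 166 with a mitochondrial share under 5%, 421 and 152 in the 171 LFD and 122 HFD members without a UMI of the endothelial, myeloid, T cell or mural lists, 2056 and 1982 without a minimum level and 53 and 27 at 100 CPM or more. The genes higher and lower past 2-fold against keratin-low cells numbered 110 and 148 when those held at most 1 marker and 512 and 1450 without a minimum level, and 39 were lower against keratin-low cells poor in fibroblastic progenitor genes, a setting chosen after seeing the data. Of the genes named or listed, direction reversed for Ctla2a (log2 0.45 in members without UMIs of other lists), for the listed chemokine gene Cxcl5 (log2 0.081 with fewer than 2 cycling genes, against -0.10 with the rule as given) and, against keratin-low cells poor in fibroblastic progenitor genes, for Sult1e1 (1.62), Postn (0.79) and Svep1 (1.12) in the HFD library. The cause was not tested, beyond the fewer cells or genes that some settings hold. In all, 25 of the summary values moved and 25 did not, and of the values of single genes 396 moved by more than their counting interval with their direction kept, 574 did not and 5 reversed. Intervals cover counting error only, so the spread between mice is unknown, and genes under 20 CPM are not resolved in most single cells at these depths.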
